A study of Oryza sativa Japonica Group with 32 samples.

Results

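The 9 rice genes described here, of 38978 genes in the expression table, encode transcription factors of the MADS family and were chosen by name, through their gene identifiers. They comprised the FUL-like genes OsMADS14 (Os03g0752800), OsMADS15 (Os07g0108900, listed under the symbol DEP) and OsMADS18 (Os07g0605200), and the SEP-like gene OsMADS34 (Os03g0753100, listed as PAP2). They further comprised the SOC1-like genes OsMADS50 (Os03g0122600) and OsMADS56 (Os10g0536100), and the SVP-like genes OsMADS22 (Os02g0761000), OsMADS47 (Os03g0186600) and OsMADS55 (Os06g0217300). All plants were japonica rice of the cultivar Nipponbare, so no allele or agent separated the groups, and light or its absence was the only treatment. Tissues were the heading panicle, the embryo and the endosperm at 10 days after anthesis, plumules (the shoot of the germinating seed) kept in light or in the dark until 3 days after germination, whole seedlings at 8 days and at 2 weeks, and the flag leaf (the last leaf below the panicle) at 10 days after anthesis. Expression was measured in 16 untreated polyA RNA libraries, 2 biological replicates for each of the 8 tissues, as TPM, a length-scaled share of the library's transcripts. Methylation of adenosine at its N6 position (m6A) was measured in the 16 treated libraries by m6A-SAC-seq, which turns methylated bases into mismatches in the cDNA. The site table held 1 calibrated fraction and 1 read depth for each site and tissue, so fractions have no replicate error.

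MADS proteins bind DNA as dimers and work in complexes of several family members. In grasses, FUL-like and SEP-like proteins act with florigen, the mobile flowering signal made in leaves, to turn the shoot meristem into an inflorescence meristem. SOC1-like proteins act in the leaf upstream of florigen, and SVP-like proteins are known for keeping vegetative growth and for modulating the response to brassinosteroid hormones.

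m6A in plant mRNA lies mostly in short motifs with a purine before and a cytosine after the methylated base, and the sites that carried the fractions described further on are shown here. Each is written 5′ to 3′ in the sense of the transcript as listed by the authors, with the methylated adenosine in capitals and positions on IRGSP-1.0. The set holds, for each gene, the site with the highest mean fraction among those counted in most tissues, and the sites of OsMADS22 counted in all 8 tissues.
OsMADS14, chromosome 3, position 31031805, minus strand, 3′ UTR: tgAct
OsMADS15, chromosome 7, position 471303, minus strand, 3′ UTR: ctAct
OsMADS18, chromosome 7, position 24793607, plus strand, 3′ UTR: tgAcg
OsMADS34, chromosome 3, position 31048557, minus strand, 3′ UTR: ggAtt
OsMADS50, chromosome 3, position 1270425, minus strand, 3′ UTR: agAcg
OsMADS56, chromosome 10, position 20873585, plus strand, 3′ UTR: agAcc
OsMADS22, chromosome 2, position 32044615, plus strand, 3′ UTR: agAct
OsMADS22, chromosome 2, position 32044716, plus strand, 3′ UTR: ggAtc
OsMADS22, chromosome 2, position 32044722, plus strand, 3′ UTR: tgAct
OsMADS47, chromosome 3, position 4519729, minus strand, 3′ UTR: agAct
OsMADS55, chromosome 6, position 5952680, minus strand, 3′ UTR: gtAcc
All 11 lay in 3′ UTRs, and only OsMADS14, OsMADS22 and OsMADS47 showed an agAct or tgAct motif here.

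Reads recovered from the TPM values numbered between 12856679 and 15516038 per library, and replicates correlated with r between 0.991 and 0.996 across genes. Defining markers of leaf, panicle, embryo and endosperm were found in the tissues so labelled. The 3 leaf markers (CAB2R, OsRBCS2 and OsRcaII) summed to 6412 and 6292 TPM in flag leaf, the 6 floral organ markers to 1185 and 1200 TPM in panicle, the 3 embryo markers to 29042 and 24739 TPM in embryo and the 2 endosperm markers to 1458 and 1492 TPM in endosperm. The endosperm libraries also held the embryo markers, at a sum of 6388 and 7513 TPM, and the leaf markers, at a sum of 945 and 1164 TPM. Panicle libraries held the leaf markers at a sum of 4171 and 4168 TPM, with CAB2R and OsRBCS2 higher there than in flag leaf. OSH1, a homeobox gene of the shoot meristem, stood at 43.7 and 45.6 TPM in panicle and was listed at 0 in both flag leaf libraries. Leaf markers did not separate the plumules in the direction of their labels, with a sum of 1181 and 1077 TPM in the plumules labelled light and 1449 and 1426 TPM in those labelled dark. CAB2R, a gene of the light-harvesting complex, had 718 and 631 TPM in the plumules labelled light and 972 and 944 TPM in those labelled dark.

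The genes are described by subfamily, and the 4 subfamilies were not tested against each other. All 9 genes varied among the 8 tissues (limma F-test, largest adjusted p = 7.09e-12). This was the rule across the transcriptome, since 98.6% of the 28562 genes tested passed the same test. In bulk tissue, fewer cells of a type and less RNA per cell cannot be told apart, so every level below is one of the whole tissue.

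The FUL-like genes, which specify inflorescence and floral meristem identity, were high in the panicle, and OsMADS14 and OsMADS18 were also high in flag leaf, at levels that the test did not separate. OsMADS14 had 87.1 and 92.1 TPM in panicle, 80.1 and 74.6 TPM in flag leaf, and 4.89 and 4.58 TPM in endosperm. In the other 5 tissues it did not pass 0.295 TPM. OsMADS18 showed the same 2 high tissues, with 75.1 and 81.0 TPM in panicle and 66.4 and 73.7 TPM in flag leaf, but was also found at 9.72 and 9.67 TPM in endosperm, 6.49 and 5.83 TPM in 2-week seedlings and 1.97 and 2.43 TPM in 8-day seedlings. OsMADS15, which also shapes the palea of the rice floret, was different. It had 132 and 134 TPM in panicle and 0.723 and 1.01 TPM in flag leaf, and the other 6 tissues held at most 4 reads per library. No read of OsMADS15 was found in embryo, in either plumule or in 8-day seedlings, which allows up to 3 reads per library, or 0.0879 to 0.121 TPM across all libraries.

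OsMADS34, a SEP-like gene that acts in the inflorescence and spikelet meristems, followed the panicle with 36.6 and 37.5 TPM. Flag leaf held 8.90 and 9.44 TPM and endosperm 0.558 and 0.551 TPM. Embryo, dark plumules and 2-week seedlings held no read of it. In the RefSeq annotation of rice (assembly ASM3414082v1, used for gene order only), OsMADS34 and OsMADS14 were neighbours on chromosome 3 with 0 annotated genes between them.

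The SOC1-like genes were highest in flag leaf, panicle and 2-week seedlings, and far lower in the seed. OsMADS50, a long-day activator of flowering and the rice relative of Arabidopsis SOC1, had 43.2 and 45.1 TPM in 2-week seedlings, 34.4 and 31.8 TPM in flag leaf, 20.4 and 19.3 TPM in panicle, and 17.9 and 17.8 TPM in 8-day seedlings. Plumules held 4.26 and 4.26 TPM in light and 6.0 and 5.65 TPM in the dark, and no library of embryo or endosperm reached 1 TPM. OsMADS56, a long-day repressor of flowering, had 128 and 124 TPM in flag leaf, 75.7 and 78.8 TPM in panicle and 72.1 and 71.8 TPM in 2-week seedlings. It stood at 2.94 and 2.92 TPM in 8-day seedlings and 4.12 and 4.80 TPM in endosperm, and at or below 0.280 TPM in embryo and plumules.

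The SVP-like genes peaked in leaves or seedlings, and embryo was among the 2 lowest tissues of each. OsMADS22 was the only member of the 9 above 20 TPM in every library. It had 139 and 135 TPM in flag leaf, 113 and 105 TPM in 2-week seedlings and 64.8 and 65.9 TPM in 8-day seedlings, while its lowest values, 21.8 and 21.5 TPM, were those of the panicle. In between, endosperm (40.6 and 40.1 TPM), dark plumules (35.5 and 33.3 TPM), light plumules (30.8 and 34.2 TPM) and embryo (29.1 and 31.2 TPM) followed each other, and the libraries of light plumule overlapped with those of dark plumule and of embryo. OsMADS47, which represses brassinosteroid responses, peaked in 2-week seedlings (42.3 and 40.3 TPM), ahead of 8-day seedlings (25.8 and 29.6 TPM), flag leaf (16.2 and 15.8 TPM), light plumules (15.4 and 15.1 TPM) and dark plumules (12.4 and 13.1 TPM). Its low tissues were the panicle, with 7.25 and 4.99 TPM, the endosperm, with 3.84 and 4.25 TPM, and the embryo, with 1.24 and 1.26 TPM. OsMADS55 was concentrated in 1 tissue. It had 179 and 177 TPM in flag leaf, against 10.6 and 11.5 TPM in 2-week seedlings, 10.0 and 9.03 TPM in panicle, and at most 4.27 TPM elsewhere. TPM is set per length, and the table gives OsMADS14 and OsMADS15 a length of 2588 and 2680 bases against 1088 to 1368 bases for the other 7, so levels of those genes depend on that length.

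**Figure D1:**
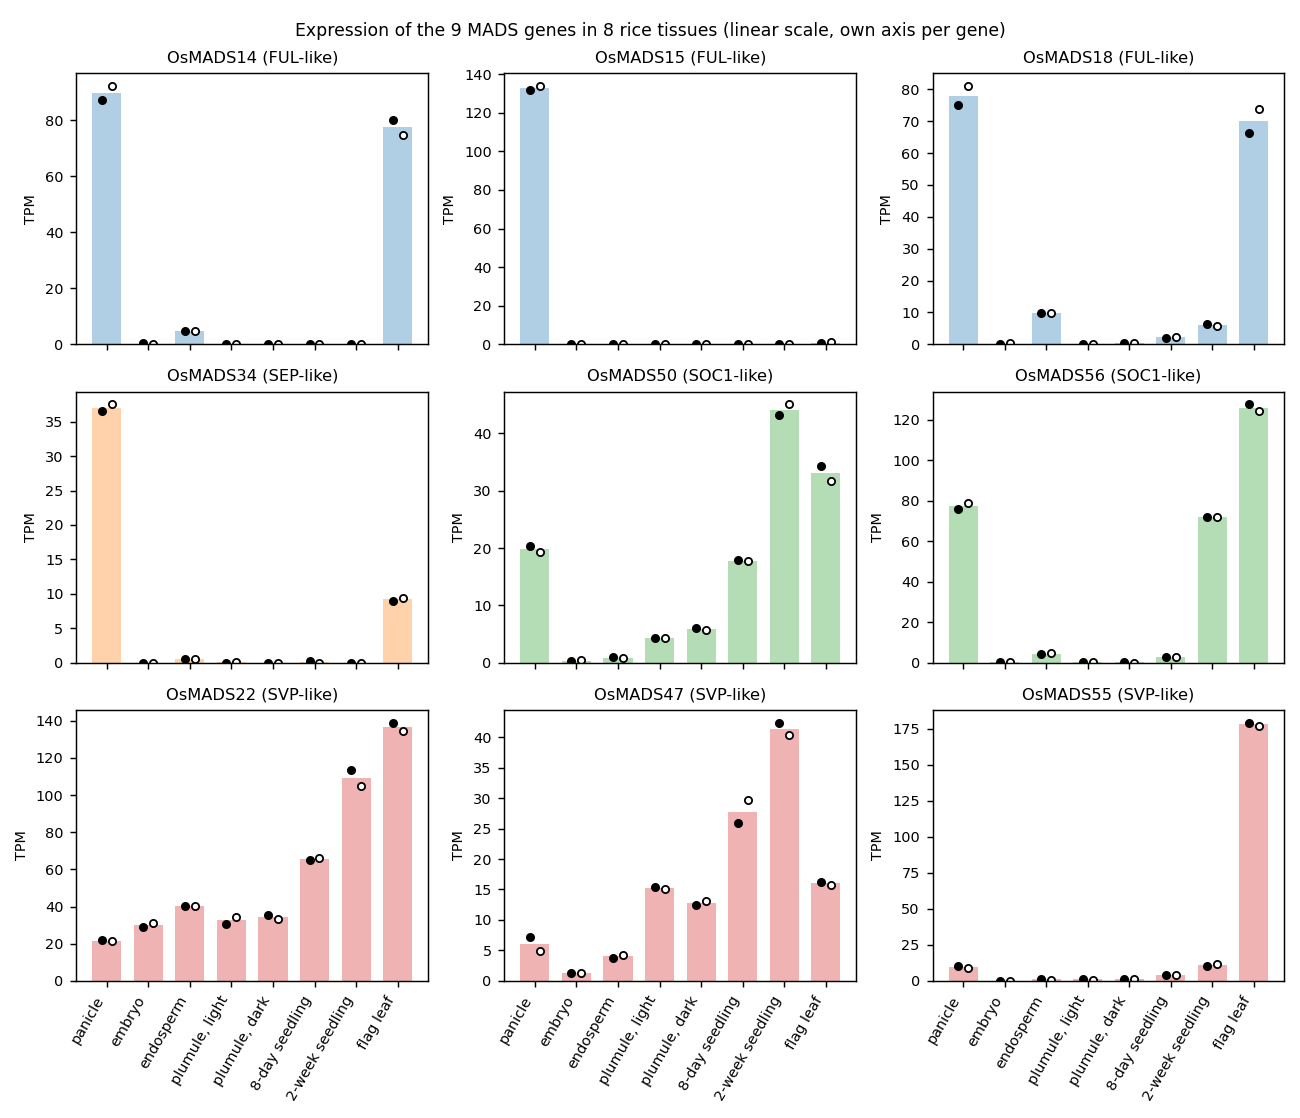
TPM of the 9 MADS genes (1 panel each, own linear axis from 0) in 8 tissues, with bars for the mean of 2 libraries and filled and open points for replicates 1 and 2. The FUL-like genes and OsMADS34 are high in panicle, OsMADS55 reaches 177 to 179 TPM in flag leaf, and OsMADS22 is at 21.5 TPM or more in every library.

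Plumules labelled light were compared with those labelled dark, where 4 of the 9 genes held at least 10 reads in every library. No member passed the test in either direction, against 0% of all genes called higher and 0.0105% called lower. OsMADS50 came closest, at 4.26 and 4.26 TPM in light and 6.0 and 5.65 TPM in the dark. Its log2 fold change of TPM + 1 was -0.38 (SE 0.09, 95% interval -0.57 to -0.18), with an unadjusted p of 0.00113 and an adjusted p = 0.275. OsMADS22 (-0.08, interval -0.24 to 0.08), OsMADS47 (0.24, interval -0.04 to 0.51) and OsMADS55 (-0.27, interval -0.65 to 0.12) did not pass either, and these intervals bound the differences that 2 libraries a group could have missed. The value of OsMADS55 depended on single libraries of the light plumule, at -0.53 without replicate 1 and -0.0049 without replicate 2. The leaf markers were lower in the plumules labelled light, and their part in this comparison was not tested.

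Between 8 days and 2 weeks the seedlings gained SOC1-like and SVP-like transcripts. Of the 9 members, 6 rose in 2-week seedlings and 0 fell, against 35.4% of all genes called higher and 31.6% called lower. The all-gene split was 10110 higher and 9017 lower, and 8604 higher and 10407 lower after rescaling. The median log2 fold change was 0.73 over the members and 0.01 over all genes. OsMADS56 rose furthest, to 72.1 and 71.8 TPM in 2-week seedlings, against 2.94 and 2.92 TPM in 8-day seedlings, a 24.5-fold difference (log2 fold change 4.21, SE 0.12, adjusted p = 6.98e-12). OsMADS50, its SOC1-like relative with the opposite known effect on flowering, was 2.48-fold higher at 2 weeks (1.26, SE 0.09, adjusted p = 3.68e-08). Among the SVP-like genes, OsMADS55 was 2.72-fold higher (1.25, SE 0.18, adjusted p = 2.88e-05), OsMADS22 1.67-fold (0.73, SE 0.07, adjusted p = 1.13e-06) and OsMADS47 1.49-fold (0.56, SE 0.13, adjusted p = 0.0015). OsMADS18 was the one meristem identity gene with a change, 2.80-fold higher at 2 weeks (1.16, SE 0.11, adjusted p = 8.32e-07). OsMADS14, OsMADS15 and OsMADS34 held at most 3 reads in each of these 4 libraries, so no fold is given for them. All 6 calls held when any 1 library was left out.

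The flag leaf of flowering plants was set against the 2-week seedling. Of the members, 7 rose in flag leaf and 2 fell, against 32.9% of all genes called higher and 33.8% called lower, with a median log2 fold change of 0.87 over the members and 0 over all genes. All meristem identity genes were among those that rose. OsMADS14 had 80.1 and 74.6 TPM in flag leaf, against 2 reads in each 2-week seedling library, a ratio of 997 with a counting interval of 389 to 3662 (log2 fold change of TPM + 1 of 6.18, SE 0.10, adjusted p = 9.84e-15). OsMADS34 had 8.90 and 9.44 TPM in flag leaf, against no read in 2-week seedlings, which is at least 39.1-fold higher at a floor of 3 reads per library (3.35, SE 0.11, adjusted p = 5.99e-12). OsMADS18 was 11.4-fold higher in flag leaf (3.31, SE 0.11, adjusted p = 1.19e-11). OsMADS15 passed the test at a low level, 0.723 and 1.01 TPM in flag leaf against 0 and 1 read in 2-week seedlings (0.87, SE 0.10, adjusted p = 4.79e-06).

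The vegetative members moved apart in the same comparison. OsMADS55 was 16.1-fold higher in flag leaf than in 2-week seedlings (log2 fold change 3.89, SE 0.18, adjusted p = 2.15e-10), whereas its SVP-like relative OsMADS47 fell to 16.2 and 15.8 TPM in flag leaf, against 42.3 and 40.3 TPM in 2-week seedlings (-1.31, SE 0.13, adjusted p = 6.29e-07). OsMADS56 was 1.75-fold higher in flag leaf (0.80, SE 0.12, adjusted p = 5.43e-05), while OsMADS50 fell to 34.4 and 31.8 TPM in flag leaf, against 43.2 and 45.1 TPM (-0.41, SE 0.09, adjusted p = 0.0013). OsMADS22 was 1.25-fold higher (0.32, SE 0.07, adjusted p = 0.0015). The calls of OsMADS56 and OsMADS22 were lost under 1 alternative each, a pseudocount of 0.1 for OsMADS56 (adjusted p = 0.161) and edgeR on the recovered reads for OsMADS22 (adjusted p = 0.098). Leaf markers moved with this comparison too, at a sum of 6412 and 6292 TPM in flag leaf against 23959 and 24617 TPM in 2-week seedlings, and their part in the members' differences was not tested. This comparison shares the 2-week libraries with the one before and the flag leaf libraries with the next, so the 3 are not independent.

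Panicle and flag leaf, taken at heading and at 10 days after anthesis, shared OsMADS14 and OsMADS18 at levels that the test did not separate. OsMADS14 had 87.1 and 92.1 TPM in panicle and 80.1 and 74.6 TPM in flag leaf. Its log2 fold change was 0.21 (95% interval -0.01 to 0.43, limma adjusted p = 0.0765). OsMADS18 had 75.1 and 81.0 TPM in panicle and 66.4 and 73.7 TPM in flag leaf. Its log2 fold change was 0.15 (interval -0.09 to 0.40, limma adjusted p = 0.236). Both signs turned when TPM was rescaled by median-of-ratios size factors, to -0.11 and -0.16. With the 4 libraries of these tissues alone, OsMADS14 passed (0.21, adjusted p = 0.0229).

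The other 7 members differed between these tissues, 2 higher and 5 lower in panicle, against 48.9% of all genes called higher and 26.2% called lower. The all-gene split was 13975 higher and 7474 lower, and 11238 higher and 9846 lower after rescaling, which moved the median over all genes to 0.06, against 0.30 as deposited. The median over the members was -0.70. OsMADS15 was 153-fold higher in panicle (log2 fold change 6.17, SE 0.10, adjusted p = 4.62e-15) and OsMADS34 was 4.04-fold higher (1.90, SE 0.11, adjusted p = 1.27e-09). All 5 SOC1-like and SVP-like genes were lower in panicle. OsMADS55 had 10.0 and 9.03 TPM in panicle, against 179 and 177 TPM in flag leaf (-4.09, SE 0.18, adjusted p = 7.06e-11), and OsMADS22 had 21.8 and 21.5 TPM against 139 and 135 TPM (-2.60, SE 0.07, adjusted p = 7.74e-13). OsMADS47 (-1.27, SE 0.13), OsMADS50 (-0.71, SE 0.09) and OsMADS56 (-0.70, SE 0.12) differed less, with a largest adjusted p of 0.000145, and the call of OsMADS56 was lost with a pseudocount of 0.1 (adjusted p = 0.205). After rescaling, the 7 kept their sides, between -4.36 for OsMADS55 and 5.75 for OsMADS15. All 6 floral organ markers were at 1 TPM or more in both panicle libraries, at a sum of 1185 and 1200 TPM, against 1 of 6 in flag leaf, at a sum of 20.7 and 15.6 TPM. The leaf markers summed to 4171 and 4168 TPM in panicle and 6412 and 6292 TPM in flag leaf. OsRcaII alone was higher in flag leaf, at 3408 and 3223 TPM against 405 and 440 TPM in panicle. CAB2R was higher in panicle (1992 and 1916 TPM against 1613 and 1708 TPM), as was OsRBCS2 (1775 and 1812 TPM against 1391 and 1361 TPM). The part of either list in the members' differences was not tested.

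In the seed, 8 of the 9 members were lower in embryo than in endosperm and 0 were higher, against 24.4% of all genes called lower and 44.6% called higher. The all-gene split was 12751 higher and 6965 lower, but 8855 higher and 10502 lower after rescaling, with a median of 0.20 as deposited and -0.03 rescaled, while the median over the members was -0.86. OsMADS18 had 0.156 and 0.333 TPM in embryo, against 9.72 and 9.67 TPM in endosperm (log2 fold change -3.11, SE 0.11, adjusted p = 2.69e-11). OsMADS14 had 0.295 and 0.175 TPM in embryo, against 4.89 and 4.58 TPM in endosperm (-2.22, SE 0.10, adjusted p = 2.52e-10). OsMADS56 had 3 and 1 reads in the embryo libraries, against 67 and 79 in endosperm (-2.27, SE 0.12, adjusted p = 1.32e-09). OsMADS47 (-1.16, SE 0.13), OsMADS55 (-0.86, SE 0.18) and OsMADS22 (-0.41, SE 0.07) were lower as well, with a largest adjusted p of 0.000661. After rescaling, these 3 were at -1.65, -1.25 and -0.92, and OsMADS18, OsMADS14 and OsMADS56 at -3.73, -2.79 and -2.85, so the members kept their direction and the size for OsMADS22 depended on the scaling. On the read scale of edgeR OsMADS22 was at -0.97 and OsMADS47 at -2.23. OsMADS22 was the most abundant member in both tissues, with 29.1 and 31.2 TPM in embryo and 40.6 and 40.1 TPM in endosperm.

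OsMADS34 and OsMADS50 also passed this test but stayed under 1 TPM in all 4 seed libraries. OsMADS34 had no read in embryo and 9 reads in each endosperm library, and OsMADS50 had 4 and 5 reads in embryo and 13 and 11 in endosperm. OsMADS15 held no read in embryo and 1 and 4 reads in endosperm, and did not pass (limma adjusted p = 0.413), although edgeR on the recovered reads called it lower in embryo (adjusted p = 0.00882). The endosperm libraries held more of the leaf markers, at a sum of 23.2 and 26.8 TPM in embryo and 945 and 1164 TPM in endosperm. The 6 floral markers summed to 26.2 and 26.2 TPM in embryo and 156 and 146 TPM in endosperm. Among them OsMADS16 alone went the other way, with 10.0 and 10.7 TPM in embryo and 2.50 and 2.08 TPM in endosperm. The part of these other tissues in the members' values was not tested.

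**Figure D2:**
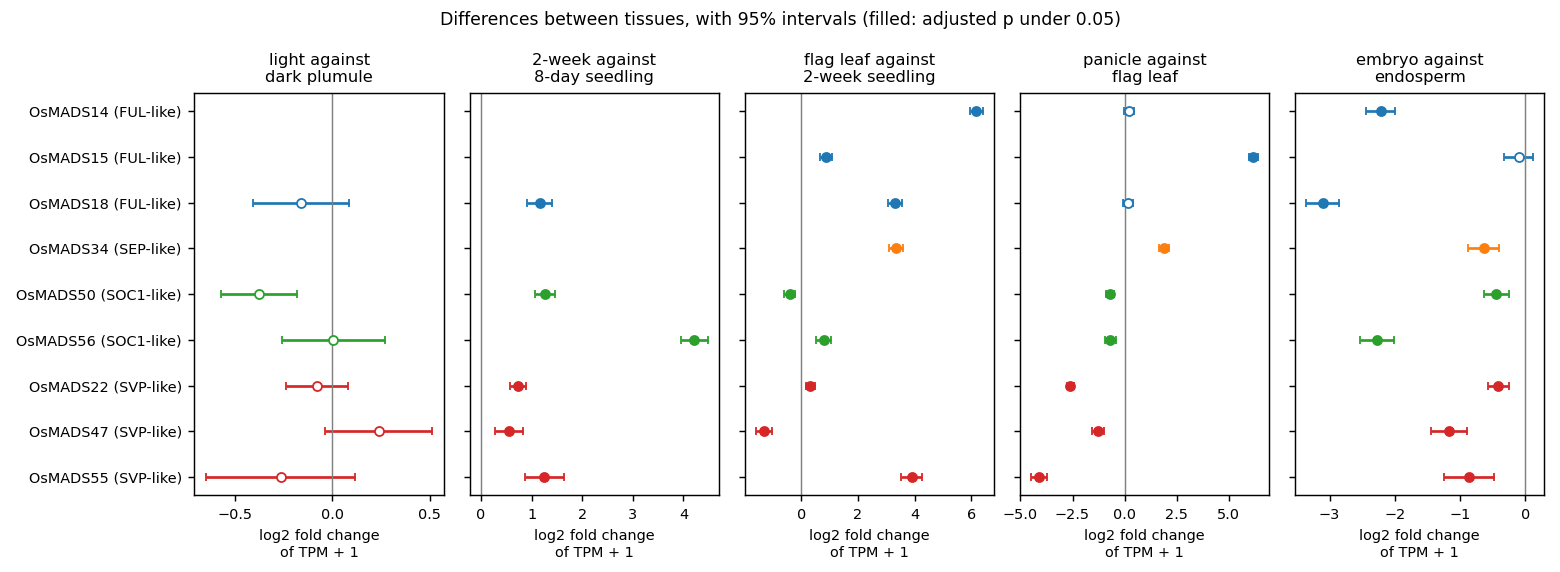
Log2 fold change of TPM + 1 for each member in 5 comparisons, first-named tissue over second, with 95% intervals from limma; filled points have an adjusted p under 0.05, colours mark the subfamily, and members with at most 3 reads in every library of both tissues are left out. OsMADS56 stands at 4.21 between the seedlings, OsMADS14 at 6.18 and OsMADS55 at 3.89 in flag leaf, and OsMADS15 at 6.17 in panicle.

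Grouping the tissues as reproductive (panicle, embryo and endosperm) against vegetative (the other 5) was tested for each gene. An exact two-sided permutation over the 56 splits of the 8 tissue means was run, whose smallest p is 0.0179, so that the design leaves little room for a call after adjustment. No gene passed after adjustment, so 0% were called (smallest adjusted p = 0.325), and 8.65% of all genes had an unadjusted p under 0.05. OsMADS47 reached that smallest p, with a mean log2(TPM + 1) of 2.11 in reproductive and 4.43 in vegetative tissues (difference -2.32, adjusted p = 0.325), and every vegetative tissue lay above every reproductive one. OsMADS15 had a difference of 2.20 (exact p = 0.196) and OsMADS14 one of 1.80 (exact p = 0.321). OsMADS50 differed by -2.11 (exact p = 0.161) and OsMADS22 by -1.09 (exact p = 0.143), both lower in reproductive tissues on average. For OsMADS56 the difference was -0.13 (exact p = 0.929), with a vegetative organ and the panicle at its top. The median difference over all genes was -0.19.

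A list of 13 further MADS genes held the B, C, D and E class genes of floral organ identity, partners of these proteins in floral complexes, and OsMADS51, known as a promoter of flowering in short days. All 13 of 13 were higher in panicle than in flag leaf, with a median log2 fold change of 6.14, against 48.9% of all genes and a median of 0.30. The 12 genes other than OsMADS51 were listed for floral organ identity, so a higher level in panicle was built into their choice. OsMADS2, OsMADS3, OsMADS4, OsMADS16 and OsMADS58 were also among the 6 floral organ markers, so the marker sums and this list are not separate results. The SEP-like OsMADS1 had 618 and 638 TPM in panicle and 1.68 and 1.77 TPM in flag leaf, and OsMADS8 had 378 and 383 TPM in panicle and 0 and 0.0807 TPM in flag leaf. OsMADS14 and OsMADS18 were found in the flag leaf at 66.4 to 80.1 TPM where, of the 12 genes of the list apart from OsMADS51, OsMADS16, a B class gene, alone passed 2 TPM, at 18.5 and 14.1 TPM. OsMADS51 had 45.2 and 41.9 TPM in flag leaf and was found in every tissue. Between embryo and endosperm, 2 of 13 were higher in embryo and 10 lower, against 44.6% of all genes called higher and 24.4% called lower. OsMADS7 and OsMADS8 were at 1.53 and 1.89 TPM and at 1.76 and 1.58 TPM in embryo, against 247 and 227 TPM and 301 and 266 TPM in endosperm. Between flag leaf and 2-week seedlings 3 of 13 were higher and 5 lower, between 2-week and 8-day seedlings 2 of 13 were higher and 5 lower, and none was called between light and dark plumules. The all-gene shares were 32.9% higher and 33.8% lower for flag leaf and 35.4% higher and 31.6% lower for 2 weeks, and the flag leaf counts were near them.

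Of 11 further genes of the flowering pathway, 9 passed the filter of 1 TPM in at least 2 libraries. Hd3a, a florigen gene, had 21.6 and 21.3 TPM in panicle, against 2.67 and 1.37 TPM in flag leaf (log2 fold change 2.93, SE 0.15, adjusted p = 5.09e-10). OsSPL14, a regulator of tiller and panicle branching, had 0.133 and 0 TPM in flag leaf, against 9.59 and 9.80 TPM in 2-week seedlings (-3.33, SE 0.12, adjusted p = 1.34e-11). Of the 9, 4 were higher and 2 lower in panicle than in flag leaf, 3 higher and 4 lower in flag leaf than in 2-week seedlings, 3 higher and 3 lower at 2 weeks than at 8 days, 3 higher and 0 lower in embryo than in endosperm, and 0 were called in plumules. With 9 genes, these counts are read beside all-gene shares of 48.9% higher and 26.2% lower, 32.9% and 33.8%, 35.4% and 31.6%, and 44.6% and 24.4% in the same order, which most of them resemble.

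Across the 8 tissue means of log2(TPM + 1), OsMADS14 was most like its neighbour OsMADS34 among the members (Pearson r = 0.954) and like OsMADS18 (r = 0.938), while OsMADS15 and OsMADS34 gave an r of 0.886. OsMADS56 and OsMADS18 gave 0.901, and OsMADS15 ran against OsMADS22 (r = -0.411). These are descriptions over 8 points that share libraries. Many genes share such patterns: of 23028 genes with a tissue mean of at least 5 TPM, between 108 for OsMADS14 and 1021 for OsMADS50 had an r over 0.9 with a given member.

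The 3 most alike genes were OsFbox275, Os09g0328800 and ONAC010 for OsMADS14 (r from 0.984 to 0.980), OsBgal10, Os07g0446000 and OsSub43 for OsMADS15 (1.000 to 0.999), and Os10g0469100, Os03g0800400 and Os03g0333700 for OsMADS18 (0.991 to 0.988). For OsMADS34 they were OsPOP2, OsCCR and OsRLCK251 (0.996 to 0.993). For the SOC1-like genes they were Os03g0146500, OsHAK22 and the blue light receptor gene OsCRY1b for OsMADS50 (0.996 to 0.994), and OsCNGC12, Os07g0180300 and Os01g0532300 for OsMADS56 (0.995 to 0.992). For the SVP-like genes they were Os05g0495250, Os09g0412300 and OsNAC3 for OsMADS22 (0.983 to 0.974), Os04g0692600, OsCRD1 and OsGLP2-1 for OsMADS47 (0.986 to 0.977), and MRKc, Os06g0251100 and Os09g0559600 for OsMADS55 (0.996 to 0.993).

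The m6A table listed 91 sites in the 9 genes, of 205691 in all. Counted here means that the deposited detection flag was set for that tissue and at least 20 reads covered the site, and 84 of the 91 sites were counted in at least 1 tissue. Every member held counted sites, from 3 in OsMADS18 and 5 in OsMADS34 to 14 in OsMADS56 and 14 in OsMADS22. Of the 28562 genes tested for expression, 72.5% held a counted site, with a median of 6 sites in those that did. Of the members' counted sites, 66.7% lay in 3′ UTRs and 28.6% in coding sequence, against 33.1% and 37.0% of counted sites over all genes. Purine-A-C motifs made up 52.4% of the members' sites and 51.8% of all. Sites also lay close together, as 32.1% of the members' counted positions had another within 10 bases on the same strand, against 15.6% of all. No test was made of these shares.

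Depth decided where a site could be read. In flag leaf 71 of the 91 listed sites had a depth of at least 20 and 48 were counted, and in panicle 67 and 43. In embryo 14 sites reached that depth, all of them in OsMADS22, and 7 were counted. OsMADS15 and OsMADS34 had no site at that depth outside panicle and flag leaf, so whether their rare transcripts elsewhere carry m6A was not measurable.

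Most counted sites of the meristem identity genes lay in the 3′ UTR, at low and high fractions, and some high fractions lay outside it. The OsMADS14 site shown above (tgAct, position 31031805) had a fraction of 0.51 in panicle (depth 191) and 0.75 in flag leaf (depth 202). It was one of 3 counted 3′ UTR sites of that gene within 45 bases, and the other 2 lay 4 bases apart.
OsMADS14, chr3:31031843-31031851, minus strand, both sites in capitals: gaAcaaAtt
The first of these had 0.33 in panicle and 0.29 in flag leaf, and the second 0.42 in panicle and 0.67 in flag leaf. In the coding sequence of OsMADS14 the counted fractions lay between 0.106 and 0.25, and 1 intronic site had 1.00 in panicle at a depth of 30. The OsMADS18 site (tgAcg, position 24793607) was steady, at 0.80 in panicle (depth 238), 0.72 in endosperm (depth 36) and 0.70 in flag leaf (depth 320). The OsMADS34 site (ggAtt, position 31048557) had 0.71 in panicle (depth 116) and 0.79 in flag leaf (depth 36), and 1 site of its 5′ UTR had 0.905 in panicle (depth 72).

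OsMADS15 was covered almost only in panicle, where 11 of its 14 listed sites were counted. In its 3′ UTR, 3 sites had fractions of 1.00, 0.905 and 1.00 at depths of 726, 801 and 662, and none of the 3 had a purine-A-C motif.
OsMADS15, position 471303: ctAct
OsMADS15, position 471317: gtAcc
OsMADS15, position 471497: ctAgc
Its 2 adjacent purine-A-C sites had lower fractions, 0.34 and 0.40 at depths of 313 and 364.
OsMADS15, chr7:471444-471452, minus strand, both sites in capitals: aaAcaaAcc
With purine-A-C motifs alone, 3 sites of OsMADS15 remained, against 12 with all motifs. The OsMADS34 site with a fraction of 1.00 in panicle (depth 67, position 31048465) had the same ctAct motif as the first of the 3. No untreated fraction is in the table to set beside these values. The paper calibrated fractions by motif on added probes, and reported a much higher mutation ratio for GAC than for AAC. Fractions of unlike motifs thus rest on unlike calibrations, and the part of this in the values above was not tested.

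Of the counted sites of the SOC1-like genes, 5 of 7 in OsMADS50 and 7 of 14 in OsMADS56 lay in the 3′ UTR. The OsMADS50 site shown above (agAcg) had 0.41 in panicle (depth 34), 0.53 in 8-day seedlings (depth 26), 0.82 in 2-week seedlings (depth 35) and 0.54 in flag leaf (depth 41). In OsMADS50, 3 further 3′ UTR sites stood at 1.00 in 2-week seedlings and at 1.00, 0.94 and 0.42 in flag leaf, at depths of 22 to 37. These depths are shallow, and a minimum depth of 50 left OsMADS50 with 1 site, against 7. That site lay on the A of the start codon (agAtg, position 1299956), with 0.13 in panicle, 0.19 in light plumules and 0.14 in flag leaf. OsMADS56 held its highest site (agAcc, position 20873585) at 1.00 in panicle (depth 82), 0.87 in 2-week seedlings (depth 43) and 0.90 in flag leaf (depth 161). The site before it, 5 bases upstream, varied more, with 0.725 in flag leaf (depth 169), 0.35 in panicle (depth 90, not detected) and 0 in 2-week seedlings (depth 49, not detected).
OsMADS56, chr10:20873578-20873587, plus strand, both sites in capitals: gtAgcagAcc
Of its 7 counted coding sites, 6 had counted fractions of 0.107 to 0.225, and a taAcc site at position 20873167 had 0.47 in panicle, 0.38 in 2-week seedlings and 0.56 in flag leaf.

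OsMADS22 was the one member whose sites could be followed through all 8 tissues, since 14 of its 15 listed sites had a depth of at least 20 in each. Its 3 sites counted everywhere kept their order in 7 of the 8 tissues. The agAct site (position 32044615) ranged from 0.24 in endosperm to 0.38 in 2-week seedlings, the ggAtc site (position 32044716) from 0.37 in dark plumules to 0.70 in 2-week seedlings, and the tgAct site (position 32044722) from 0.55 in embryo to 0.71 in 2-week seedlings. In embryo the ggAtc site, at 0.685, lay above the tgAct site. The tgAct site was followed by a weaker one 5 bases downstream, which was counted in 4 tissues at 0.27 to 0.39.
OsMADS22, chr2:32044720-32044729, plus strand, both sites in capitals: tgActaaAct
Another site of the same 3′ UTR set the seed apart in value. At position 32044656 (taAcc) the fraction was 0.75 in embryo (depth 188) and 0.57 in endosperm (depth 237), against 0.11 to 0.26 in the other 6 tissues at depths of 118 to 844. Of the 9 sites of OsMADS22 compared between embryo and endosperm, 5 were higher in embryo and 4 lower. Some coding sites were counted in 1 tissue only, such as aaAgc at position 32041612, which is not a purine-A-C motif. It had 0.685 in dark plumules (depth 58) and 0 in light plumules (depth 86, not detected). In 8-day seedlings it had 0.27 (depth 148, not detected), and the remaining tissues lay at 0 to 0.04.

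The OsMADS47 site counted in most tissues (agAct, position 4519729) ranged from 0.25 to 0.38 over 7 tissues at depths of 25 to 192. A pair of further 3′ UTR sites of the gene were counted in the 5 tissues of seedling, plumule and flag leaf. They were a ggAtg site at position 4519613, with 0.79 in light plumules, 0.61 in dark plumules, 0.73 in 8-day seedlings, 0.94 in 2-week seedlings and 0.64 in flag leaf, and a taAca site at position 4519645, with 0.48 to 0.67. For OsMADS55, 12 of 12 listed sites were counted in flag leaf and 1 each in panicle, 8-day seedlings and 2-week seedlings. Depth limited these counts, as 12 sites reached 20 reads in flag leaf, 7 in panicle and 3 at each seedling age. Several sites were listed through detection in flag leaf alone, so the counts are no measure of where the gene is methylated. In OsMADS55, 5 sites within 43 bases at the end of its 3′ UTR had fractions of 0.71 to 1.00 in flag leaf at depths of 240 to 1064, and the gtAcc site shown above (position 5952680) was the deepest of them, with 0.94 in flag leaf and 1.00 in 8-day seedlings (depth 24). The other 7 sites of OsMADS55, in the coding sequence and the start of the 3′ UTR, had 0.10 to 0.19 in flag leaf.

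**Figure D3:**
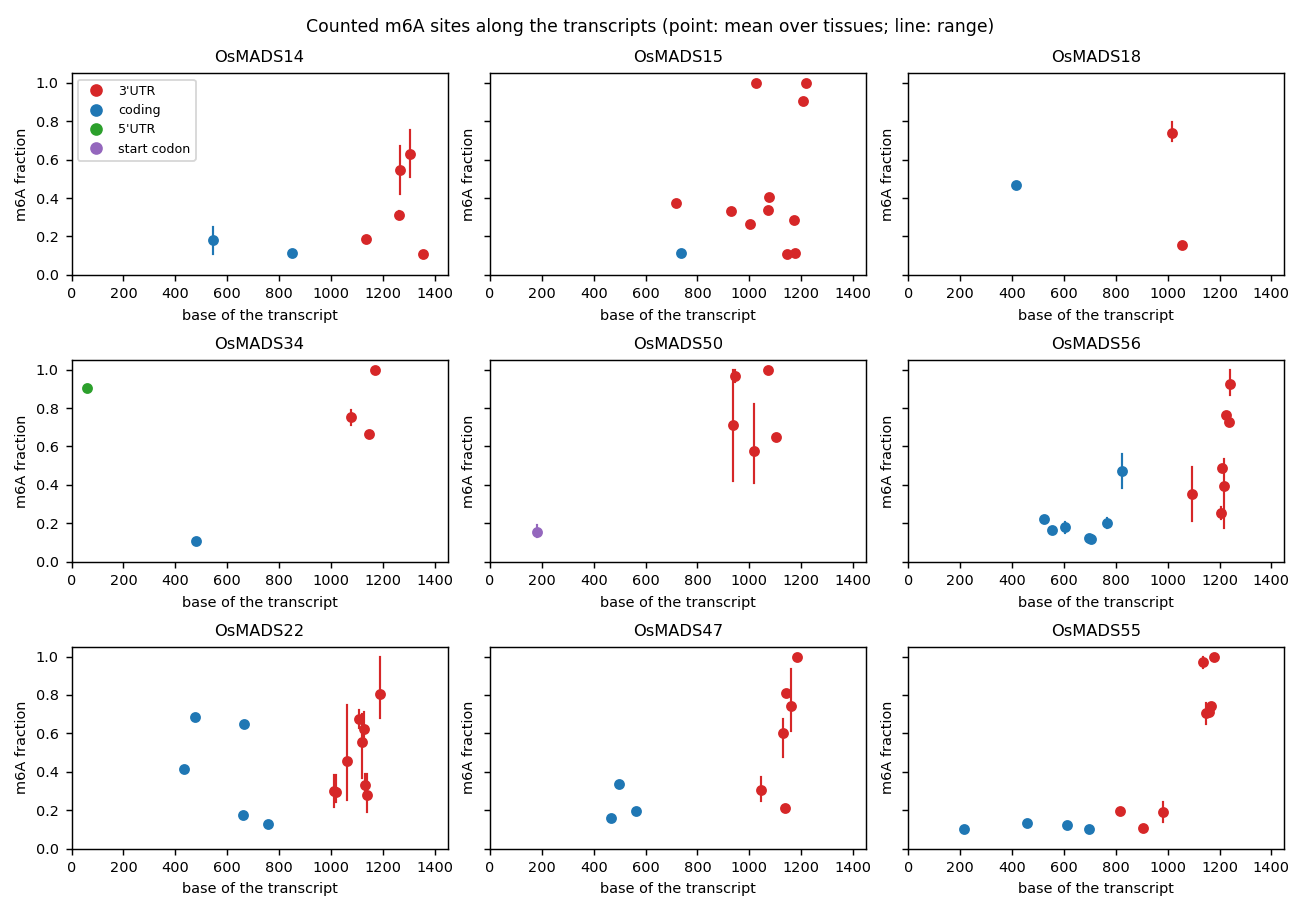
Calibrated m6A fraction (0 to 1) of counted sites against the base of the transcript, 1 panel for each gene; points are means over the tissues in which a site was counted, lines the range over them, and colours the region. OsMADS14 and OsMADS15 have sites on 2 transcripts with their own numbering. Intronic and intergenic sites are left out; the gtAgg site of the 5′ UTR of OsMADS34 stands at 0.905, and the OsMADS55 cluster near the 3′ end at 0.71 to 1.00 in flag leaf.

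Fractions at the same sites were then compared between tissues, for sites covered by 20 reads or more in each tissue of the pair and detected in at least 1 of them. A site detected in only 1 tissue of the pair was let in by that tissue, which favours a higher value there. At 2 weeks, 14 of 17 such sites of the members were higher than at 8 days and 3 lower, with a median difference of 0.119. Over 68032 sites of all genes, 32265 were higher and 32819 lower, with a median of 0. These 17 lay in OsMADS22 (9 sites), OsMADS47 (6), OsMADS50 (1) and OsMADS55 (1), so 2 genes held most of them. In flag leaf, 12 of 35 sites were higher than in 2-week seedlings and 22 lower (median -0.0641). Over all genes, 36557 of 70146 sites were higher and 30400 lower (median 0.00684). The 2 comparisons share the 2-week values. In OsMADS22, 7 of 8 sites were lower in flag leaf.

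In panicle, 18 of 43 sites were higher than in flag leaf and 25 lower (median -0.0176). Over all genes, 40392 of 88325 sites were higher and 44052 lower (median 0). OsMADS55 had all of its 7 sites lower in panicle, by differences of -0.136 to -0.00528. Only 1 OsMADS55 site was counted in panicle, against 12 in flag leaf. Most of the 7 were thus let in by detection in flag leaf alone, which favours lower values in panicle. OsMADS56 had 8 of 12 sites higher, but several of the 12 were detected in panicle alone or in flag leaf alone, which favours that tissue. In light plumules, 9 of 15 sites were higher than in dark plumules and 6 lower (median 0.0507). Over all genes, 38105 of 76336 sites were higher and 34310 lower (median 0). With 1 pooled value per tissue, none of these differences has a replicate error and none was tested.

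**Figure D4:**
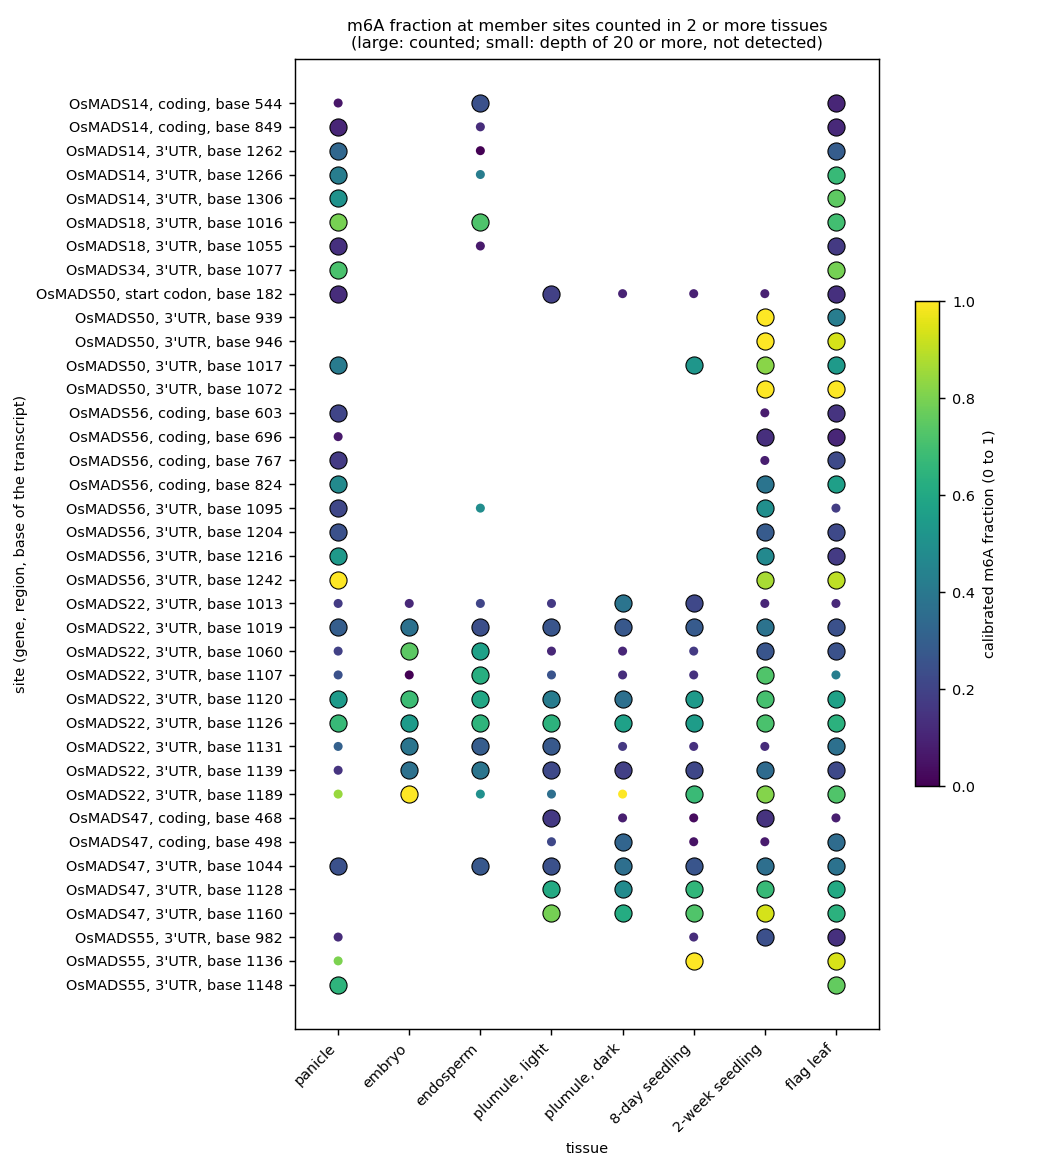
Calibrated m6A fraction (colour, 0 to 1) of the 38 member sites counted in 2 or more tissues, 1 row for each site by gene, region and base of the transcript, 1 column for each tissue; large outlined points are counted, small points have a depth of at least 20 without being detected, and no point means a lower depth. OsMADS22 fills all 8 columns, and OsMADS14, OsMADS18 and OsMADS34 are read in panicle and flag leaf with endosperm for some.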

How the data were processed

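Expression was measured in the 16 untreated libraries and m6A in the 16 treated libraries, 2 replicates for each of 8 tissues. The authors deposited expression as TPM on IRGSP 1.0, with a gene length in bases. The authors deposited, for each site and tissue, a detection flag, a count of reads (depth) and a calibrated fraction; no source used here says how the depth combined replicates. TPM steps returned whole reads for 100% of values up to 100 reads (tolerance 0.1), 12856679 to 15516038 per library. Genes with 1 TPM in at least 2 libraries (28562) were tested on log2(TPM + 1) with limma 3.58.1 over all 16 libraries, with Benjamini-Hochberg adjustment and a threshold of 0.05; this scale understates the change of low genes. edgeR 4.0.16 on recovered reads, chosen after seeing the data, was an alternative. Counting intervals and the floor of 3 reads per library cover counting error only. The limma p-values measure the spread between replicates of plants, pooled over the 8 tissues for each gene. That spread was unequal, with a chi-square per gene against counting noise of 9.55 in 8-day seedlings, 6.82 in endosperm and 1.48 in flag leaf. The permutation p-values rest on differences between tissue means. Tests were checked on simulated data. All 9 members were described; the alike genes were the 3 with the highest Pearson r among genes with a tissue mean of 5 TPM or more, and the sites shown follow the rule given beside them. Members and lists were chosen with earlier results of these data known. Values of some genes of the flowering list are not reported here. Alternatives covered the pseudocount, the filter, scaling, libraries fitted, replicate block, depth minimum, fraction minimum and motif. Analyses used Python 3.11.15, pandas 2.3.3, scipy 1.17.1 and R 4.3.3.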

Additional observations from a re-analysis of the deposited data

How the results depend on the processing

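Of the values recomputed, 86 for main results, where the total count alone is compared, and 550 for single genes and lists stayed within the limits set for each. The split of calls into higher and lower moved more, as given for the rescaled seedling, panicle and seed comparisons. The light against dark count of 3 genes (0 higher, 3 lower) became 8 with a pseudocount of 0.1, 5 without the filter, 0 with only the 4 plumule libraries, 41 with edgeR (31 higher, 10 lower, 0 shared with the 3; 1681 genes with an unadjusted p under 0.05) and 0 to 2 without 1 library (2 higher and 0 lower without dark plumule replicate 1); the cause was not tested. The members' 84 sites became 44 with purine-A-C motifs alone, by construction. The panicle over flag leaf difference turned for OsMADS14 (-0.11 rescaled) and for OsMADS18 (-0.16 rescaled, -0.021 with edgeR), and OsMADS56 between reproductive and vegetative tissues became 0.052 with a pseudocount of 0.1. Without 1 library, counts ranged from 17168 to 18480 at 2 weeks against 8 days, 16747 to 17297 in flag leaf against 2 weeks, 19013 to 19481 in panicle against flag leaf, 17862 to 18159 in embryo against endosperm, and 27196 to 28159 across tissues. Deviations of same-numbered replicates correlated weakly between tissues (r -0.201 to 0.236, median 0.097, over 0.1 in 14 of 28 pairs of tissues). With a replicate block the counts were 3, 19440, 19433, 21762 and 20034 for the 5 comparisons. Without the block they were 3, 19127, 19048, 21449 and 19716. Depth limited the site values: 14 of the 91 sites reached 20 reads in embryo, against 71 in flag leaf.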
